A study of Rattus norvegicus with 7 samples.

Results

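Transcripts of 10 enzymes of glycolysis were examined in hippocampus and hypothalamus of rats whose diet held DHA (docosahexaenoic acid, a long-chain omega-3 lipid of brain membranes). The 10 genes are Hk1, Gpi, Pfkm, Pfkp, Aldoa, Aldoc, Gapdh, Pgk1, Eno2 and Ldhb, taken by symbol from 15886 symbols found in both tables of expression values. They were chosen by their FPKM in the DHA libraries of both tables, the values given here, with the difference between the tissues known. Their levels and differences are therefore a description and carry no test. The 10 symbols had 11 loci among the 18087 of the hippocampus table and 12 loci among the 17762 of the hypothalamus table, since Eno2 had 2 loci in each and Hk1 had 2 in hypothalamus.

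The study profiled transcripts and DNA methylation of both brain regions under dietary DHA. The libraries analysed here came from male Sprague Dawley rats that entered the diet at 2 months of age and received DHA for 6 weeks, 4 libraries of hippocampus and 3 of hypothalamus. All 7 libraries share the DHA diet. The regular chow group of the design was not analysed here, and nothing below is an effect of DHA. The labels do not say whether replicates are separate animals or whether both tissues came from the same ones, so the spread between libraries may be partly technical.

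Glycolysis splits glucose into pyruvate in the cytosol and yields ATP and NADH, and lactate dehydrogenase interconverts pyruvate and lactate. Brain tissue depends on glucose as its main fuel, and lactate is exchanged between astrocytes and neurons. Several steps are served by isozymes encoded by separate genes: phosphofructokinase by Pfkm, Pfkp and Pfkl, aldolase by Aldoa and Aldoc among others, enolase by Eno1, Eno2 and Eno3, and lactate dehydrogenase by Ldha and Ldhb. Aldoc is known as an aldolase of astrocytes and Purkinje cells, and Eno2 as the enolase of neurons.

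Promoter sequences are shown for Pfkm and Gpi, the members with the largest differences in opposite directions apart from Gapdh, and for the aldolase pair. They are RefSeq windows of the build GRCr8 that run from 250 bases before to 50 bases after an annotated start, printed 5′ to 3′ on the gene's strand. Capitals mark matches to ACGTG or GCGTG on either strand, which are the core letters of the hypoxia response element that HIF-1 binds in promoters of glycolytic genes. The windows are chr7:131113849-131114148 on the plus strand for Pfkm, chr1:95993212-95993511 on the minus strand for Gpi, chr1:190836728-190837027 on the minus strand for Aldoa, which is 1 of its 3 windows, and chr10:63715294-63715593 on the plus strand for Aldoc. The other windows of Aldoa hold no match.
Pfkm: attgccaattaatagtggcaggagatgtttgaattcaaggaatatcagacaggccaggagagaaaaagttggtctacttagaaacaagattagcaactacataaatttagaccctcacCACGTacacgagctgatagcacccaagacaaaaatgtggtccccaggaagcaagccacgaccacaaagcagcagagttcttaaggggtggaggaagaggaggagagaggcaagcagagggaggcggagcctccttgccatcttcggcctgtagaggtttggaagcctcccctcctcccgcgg
Gpi: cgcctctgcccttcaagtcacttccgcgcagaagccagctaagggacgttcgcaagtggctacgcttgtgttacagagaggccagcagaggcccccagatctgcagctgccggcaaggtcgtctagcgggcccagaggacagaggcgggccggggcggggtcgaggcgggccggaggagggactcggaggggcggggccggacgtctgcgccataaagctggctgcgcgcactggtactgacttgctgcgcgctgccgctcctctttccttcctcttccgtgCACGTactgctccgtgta
Aldoa: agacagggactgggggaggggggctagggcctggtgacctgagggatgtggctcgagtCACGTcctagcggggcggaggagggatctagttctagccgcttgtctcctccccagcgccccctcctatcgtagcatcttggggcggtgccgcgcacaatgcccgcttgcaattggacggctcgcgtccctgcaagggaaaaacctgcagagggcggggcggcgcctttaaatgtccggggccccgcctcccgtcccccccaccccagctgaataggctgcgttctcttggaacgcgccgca
Aldoc: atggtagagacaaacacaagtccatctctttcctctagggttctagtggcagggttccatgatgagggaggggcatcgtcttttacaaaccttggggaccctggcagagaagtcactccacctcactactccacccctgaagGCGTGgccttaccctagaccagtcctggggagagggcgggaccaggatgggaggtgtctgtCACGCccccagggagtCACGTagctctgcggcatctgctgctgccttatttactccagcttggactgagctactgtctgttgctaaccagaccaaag
Windows were found for 9 members (12 windows), and Pgk1 had no entry in the set of windows used here. At least 1 match to ACGTG or GCGTG lay in a window of each of these 9 genes, in 9 of the 12 windows, against 41.6% of all 33469 windows. ACGTG alone, which shares its letters with the E-box CACGTG, was found in 7 windows of 7 genes (19.3% of all windows) and GCGTG in 4 windows of 4 genes (29.7%). The E-box itself was in no member window and in 6.42% of all windows. The letters GGGCGG, the core that Sp1 binds, were in 7 member windows (33.1% of all windows), and TATAAA was in that of Gapdh alone among the members (14.2%). GC content had a median of 61.5% over the 12 member windows and 51.7% over all windows. A match describes letters in a window, not a site in use.

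The tables give FPKM, a fragment number scaled to transcript length and library size, which is a level per length. Marker genes fitted the tissue labels: all 10 hypothalamus markers compared, Avp and Oxt among them, were higher in every hypothalamus library, and 5 of 6 hippocampus markers, Neurod6 among them, in every hippocampus library. Replicate 1 stood apart in both tissues. Across symbols, Pearson r of log2(FPKM + 1) was 0.907 to 0.939 for hippocampus pairs with replicate 1 and 0.962 to 0.975 for the others, and in hypothalamus it was 0.936 and 0.942 against 0.972. Choroid plexus markers summed to 4762, 5994 and 2090 FPKM in hippocampus replicates 1, 3 and 4, against 35.0 FPKM in hippocampus replicate 2 and 34.0 to 70.4 FPKM in hypothalamus. Replicate 2 lay within the hypothalamic range and the other 3 hippocampus libraries far above it. The part of this in the member values was not tested. Sequencing depth is unknown.

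At the entry of the pathway stands hexokinase 1, encoded by Hk1, which phosphorylates glucose. Hk1 read 178, 169, 168 and 112.5 FPKM in hippocampus replicates 1 to 4 and 105, 126 and 153 FPKM in hypothalamus replicates 1 to 3. The ranges overlapped through replicate 4 of hippocampus. The other hypothalamic locus of Hk1 was at most 0.0148 FPKM. Gpi, which converts glucose 6-phosphate to fructose 6-phosphate and is also secreted as a cytokine, read 317, 257, 298 and 180.0 FPKM in hippocampus and 793, 834 and 1130 FPKM in hypothalamus. Every hypothalamus library lay above every hippocampus library.

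Phosphofructokinase commits sugar to glycolysis, and its subunits form mixed tetramers. Pfkm, the muscle-type subunit, read 361, 681, 492 and 620.5 FPKM in hippocampus and 169, 133 and 168 FPKM in hypothalamus. All hippocampus libraries were higher, and replicate 1 was the lowest of them. Pfkp, the platelet-type subunit, read 111, 100.3, 95.5 and 77.8 FPKM against 150.1, 104 and 113 FPKM. These ranges overlapped.

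The aldolases cleave fructose 1,6-bisphosphate. Aldoa had the highest mean of the 10 genes in both tissues. It read 1335, 1106, 1249 and 671 FPKM in hippocampus and 1064, 846 and 1003 FPKM in hypothalamus, and its place among the symbols of a library ran from 14 to 50 from the top. Aldoc read 751, 704 and 587 FPKM in hippocampus replicates 1 to 3 and 967, 791 and 978 FPKM in hypothalamus. Its value in hippocampus replicate 4, listed as 403 FPKM, carries the status FAIL and was not used, so hippocampal Aldoc has n = 3. As deposited, hypothalamus lay above hippocampus in all usable libraries, but after rescaling the libraries to the same sum the ranges overlapped.

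Gapdh, which oxidises glyceraldehyde 3-phosphate and is a common reference gene, had the widest gap between the tables. It read 8.73, 4.03, 4.46 and 6.26 FPKM in hippocampus and 418, 593 and 787 FPKM in hypothalamus, from a single locus in each. In hippocampus it ranked between 6054 and 8071 from the top, and in hypothalamus between 67 and 135. RefSeq names 79 pseudogenes after rat Gapdh, against 9 after Aldoa, 8 after Pgk1, 1 after Ldhb and 0 after the other 6 members. Gapdh-ps1 was the one such symbol found in these tables, at no more than 0.381 FPKM in hippocampus and 0.204 FPKM in hypothalamus. How fragments shared with such copies were assigned is not given in the sources used here, and their part in the Gapdh values was not tested. The nearest single-locus symbol after Gapdh in both tables, Tapbpl, read 6.45 to 13.3 FPKM in hippocampus and 10.1 to 13.4 FPKM in hypothalamus, so the gap at Gapdh was not shared by that neighbour.

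Pgk1, the X-linked phosphoglycerate kinase that yields the first ATP of the pathway, read 294, 285, 282 and 253 FPKM in hippocampus and 171, 139 and 142 FPKM in hypothalamus. All hippocampus libraries were higher, and it had the smallest spread of the members in hippocampus, with an SD of 0.0944 in log2(FPKM + 1).

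Eno2 had the lowest mean of the members in both tissues when its highest locus stood for it. In hippocampus replicate 2, Gapdh lay below it, and the 2 hippocampal loci of Eno2 together, with means of 3.17 and 2.80 FPKM, lay above the Gapdh mean of 5.87 FPKM. Its locus with the highest mean in hippocampus read 5.28, 4.61, 2.17 and 0.611 FPKM, and that in hypothalamus read 1.21, 0.948 and 1.15 FPKM. These are different loci by their neighbours. The hippocampal one lies between Lrrc23 and Atn1 in a stretch that follows Mep1a and precedes Cd2ap, and the hypothalamic one lies beside Atn1, Lrrc23 and Tpi1. Each table holds both copies of this block, in which Grcc10, Atn1, Eno2 and Lrrc23 have 2 loci apiece, 8 loci in all. Over all 8 loci, the 3 genes other than Eno2 were at most 0.245 FPKM in hippocampus and 0.726 FPKM in hypothalamus. At the copy beside Tpi1, Eno2 read 1.91 to 3.19 FPKM in hippocampus and 0.948 to 1.21 FPKM in hypothalamus, with no overlap. At the copy beside Cd2ap it read 0.611 to 5.28 FPKM and 0.268 to 0.893 FPKM, with overlap. Of all symbols, 10.7% in hippocampus and 9.1% in hypothalamus had several loci. How fragments that match both copies were treated is not given in the sources used here, and its part in the low Eno2 values was not tested.

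Ldhb, the lactate dehydrogenase subunit common in heart and neurons, read 746, 631, 601 and 418 FPKM in hippocampus and 543, 404 and 445 FPKM in hypothalamus. Replicates 1 to 3 of hippocampus lay above all of hypothalamus, and replicate 4 lay within the hypothalamic range.

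**Figure D1:**
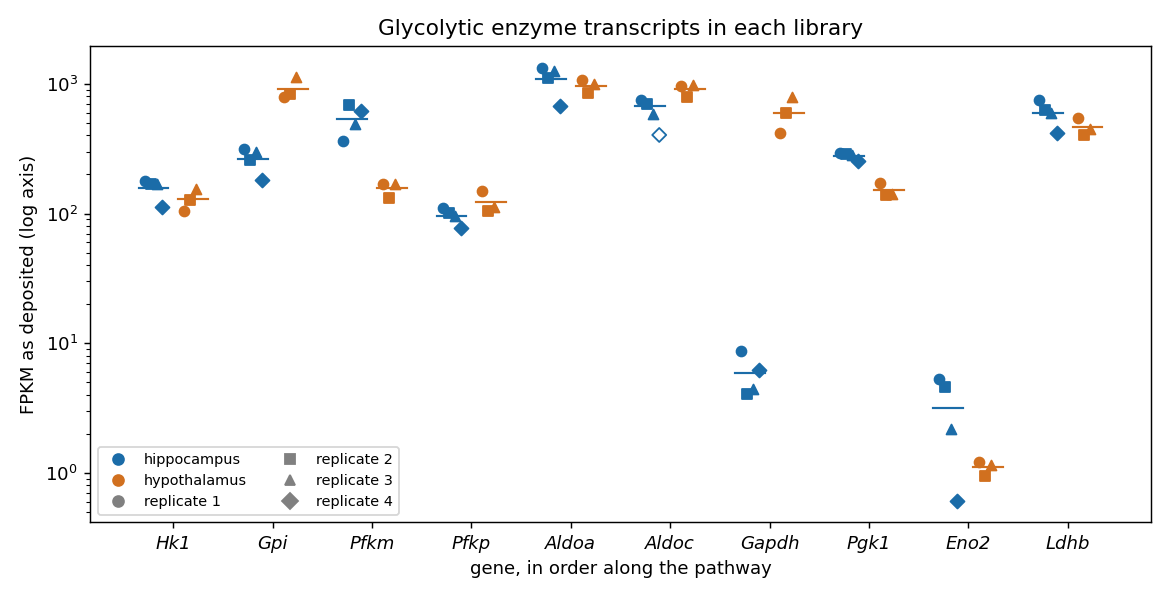
FPKM as deposited (log axis) of the 10 genes in order along the pathway, with 1 point per library, the marker shape giving the replicate and a bar at the mean of the usable values; the open diamond is the Aldoc value with status FAIL (403 FPKM). On this scale Pfkm and Pgk1 were higher in all hippocampus libraries, Gpi, Gapdh and, among usable values, Aldoc in all hypothalamus libraries, and Gapdh in hippocampus and Eno2 in both tissues lay below 10 FPKM.

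By mean FPKM, the order in hippocampus was Aldoa, Aldoc, Ldhb, Pfkm, Pgk1, Gpi, Hk1, Pfkp, Gapdh and Eno2. In hypothalamus it was Aldoa, Gpi, Aldoc, Gapdh, Ldhb, Pfkm, Pgk1, Hk1, Pfkp and Eno2. Neighbours in the hippocampal order had overlapping ranges except Pfkm against Pgk1, Gpi against Hk1, Hk1 against Pfkp and Pfkp against Gapdh. In hypothalamus, the exceptions were Aldoc against Gapdh, Ldhb against Pfkm and Pfkp against Eno2.

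For the comparison of the tissues, each library was rescaled to the same sum over shared symbols, and differences are hippocampus minus hypothalamus on the log2(value + 1) scale, which understates changes of low genes. Tissue and table cannot be told apart, because each tissue has its own table and how these were normalized is not stated, and no test was made across them. In bulk tissue, fewer cells of a type and less RNA per cell cannot be told apart either. Of the 10 members, 2 were higher in every hippocampus library, where 28.4% of the 10812 symbols compared were, and 2 were higher in every hypothalamus library, where 24.3% were. The remaining 6 overlapped. All 4 differed at least 2-fold, as 14.6% of symbols did towards hippocampus and 13.4% towards hypothalamus, again with no overlap. The rule chose members with this contrast known, so nothing is read from these counts.

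Pfkm was 4.12-fold higher in hippocampus (log2 difference 2.04; SD 0.389 over 4 hippocampus and 0.181 over 3 hypothalamus libraries). Pgk1 was 2.28-fold higher there (1.19). Gpi was 2.87-fold higher in hypothalamus (−1.52), and Gapdh 79.2-fold (−6.31). Differences of the other 6 ran from −0.12 for Aldoc and −0.04 for Pfkp through 0.42 for Aldoa, 0.58 for Hk1 and 0.65 for Ldhb to 1.21 for Eno2. The Eno2 value sets its hippocampal locus beside Cd2ap against its hypothalamic locus beside Tpi1, so it mixes the copies described above. The median was 0.50 over the 10 members and 0.05 over all symbols compared. With FPKM as deposited, the median of all symbols moved to −0.21. Then 3 members, with Aldoc added, were higher in every hypothalamus library (35.1% of symbols) and 2 in every hippocampus library (19.2%). At least 2-fold differences remained for Pfkm in hippocampus (8.74% of symbols) and for Gpi and Gapdh in hypothalamus (16.9%), while Pgk1 stood at 0.89.

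The count towards hippocampus depended on the libraries used. Without hippocampus replicate 4, 6 members lay higher in every hippocampus library, namely Hk1, Pfkm, Aldoa, Pgk1, Eno2 and Ldhb, where 31.3% of symbols did. Without replicate 1 of both tissues the count was 4, with Eno2 and Ldhb added to Pfkm and Pgk1, where 40.8% of symbols did. Eno2 was then represented in hippocampus by its other locus, the copy beside Tpi1, whose mean became the higher. That locus read 3.16, 2.95 and 1.91 FPKM in hippocampus replicates 2 to 4, so the change of locus is part of this count. Gpi and Gapdh were the members higher in every hypothalamus library in both cases (26.9% and 33.2% of symbols).

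**Figure D2:**
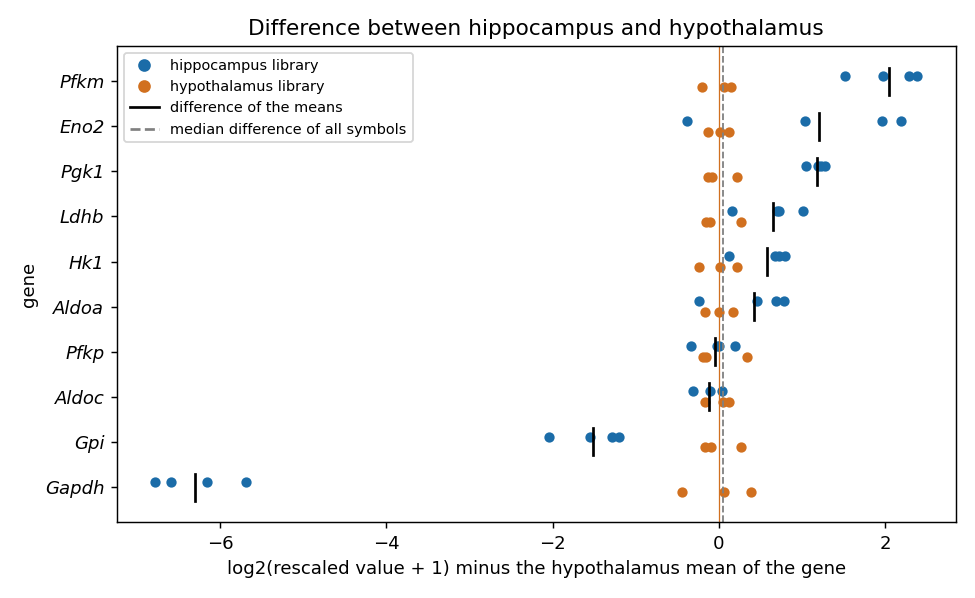
Rescaled values of each gene as log2(value + 1) minus the gene's hypothalamus mean, with 1 point per library, a black bar at the difference of the tissue means and a dashed line at the median difference of all symbols (0.05). Hippocampus points lay to the right of all hypothalamus points for Pfkm and Pgk1 and to the left for Gpi and Gapdh.

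Markers of cell types were compared in the same way. Beside their counts stand the shares of all symbols, 28.4% towards hippocampus and 24.3% towards hypothalamus. With FPKM as deposited these shares were 19.2% and 35.1%. Of 12 neuron markers, 5 were higher in every hippocampus library and 3 in every hypothalamus library, a balance that turned to 2 and 4 with FPKM as deposited. Their summed rescaled level was 9952 to 11980.3 in hippocampus and 10916 to 14013 in hypothalamus. Of 9 astrocyte markers compared, 2 were higher in hippocampus, Slc1a2 among them, and 3 in hypothalamus, Aqp4, Aldh1l1 and Gjb6 (1 and 5 with FPKM as deposited), and the summed rescaled levels were 8636 to 9503 and 7279 to 9076. Of 10 oligodendrocyte markers, 2 lay higher in hippocampus and 2 in hypothalamus, and their sums of 12343 to 14999.9 and 15131 to 19654 did not overlap. Of 9 microglia markers, 1 was higher in hippocampus and 4 in hypothalamus (1 and 6 as deposited), and the sums of 427 to 628 and 708 to 780 did not overlap either. Of 6 endothelial markers, 3 were higher in hippocampus and 0 in hypothalamus (2 and 0 as deposited), and the same held for the sums of 371 to 491 and 163 to 238. The 6 choroid plexus markers compared all overlapped through hippocampus replicate 2, with a median difference of 3.19, and Otx2 of that list was at 0 in every library. None of the 31 neuron, astrocyte and oligodendrocyte genes was listed at 0 in any library, and the lowest value was 0.174 FPKM for Nefl in hippocampus replicate 1, where the other Nefl locus read 203 FPKM. The part of cell composition in the member differences was not tested.

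Ratios of isozymes within a library are unaffected by how that library was scaled. Pfkm stood at 3.25, 6.79, 5.14 and 7.97 times Pfkp in hippocampus replicates 1 to 4 and at 1.13, 1.28 and 1.49 times in hypothalamus. Every hippocampus ratio exceeded every hypothalamus ratio, and the means differed by 2.09 on the log2 scale (SD 0.567 over 4 and 0.202 over 3 libraries). As a share of the FPKM of the 3 phosphofructokinase genes, Pfkm took 77.2% ± 7.58 (SD, n = 4) in hippocampus and 49.0% ± 1.57 (SD, n = 3) in hypothalamus, Pfkp 14.5% ± 4.45 and 38.1% ± 4.14, and Pfkl, the liver-type subunit, 8.31% ± 3.16 and 12.9% ± 2.64.

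Aldoa stood at 1.78, 1.57 and 2.13 times Aldoc in the 3 usable hippocampus libraries. In hypothalamus the ratios were 1.10, 1.07 and 1.03, near equal levels. These ranges did not overlap either (log2 difference 0.77; SD 0.219 over 3 and 0.0507 over 3 libraries).

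Ldhb stood at 15.7, 10.9, 12.4 and 10.03 times Ldha in hippocampus and at 5.99, 5.02 and 4.96 times in hypothalamus, again with no overlap (log2 difference 1.19; SD 0.281 and 0.152). Ldha, the subunit prevalent in muscle, read 41.6 to 57.9 FPKM in hippocampus and 80.5 to 90.7 FPKM in hypothalamus. Its share of the lactate dehydrogenase FPKM was 7.73% ± 1.33 (SD, n = 4) and 15.9% ± 1.38 (SD, n = 3).

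Eno1, the enolase of most tissues, exceeded Eno2 in every library, by 15.1 to 103 times in hippocampus and by 211 to 230 times in hypothalamus. The Eno2 part of these ratios rests on the 2-copy block described above. Hk1 stood at 38.5 to 71.1 times Hk2, the insulin-responsive hexokinase, in hippocampus and at 24.0 to 51.4 times in hypothalamus, and these ranges overlapped. The isozyme pairs were fixed with the tissue contrast known, so no test was made of them.

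**Figure D3:**
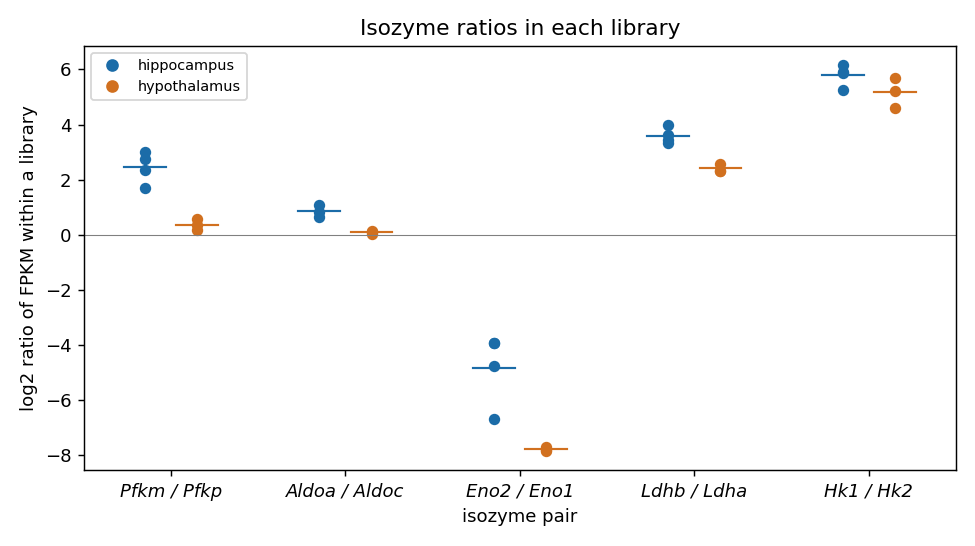
Log2 ratio of FPKM of 2 isozymes within each library, with 1 point per library and a bar at the mean (Aldoa to Aldoc has 3 hippocampus points). The ratios of Pfkm to Pfkp, Aldoa to Aldoc, Eno2 to Eno1 and Ldhb to Ldha were higher in all hippocampus libraries, and those of Hk1 to Hk2 overlapped.

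Within hippocampus, replicate 4 was the lowest library for 7 of the 9 members with 4 usable values (all but Pfkm and Gapdh), where 36.7% of 10309 symbols, and 42.0% of the 1465 with a mean of at least 50 FPKM, were lowest in it. Replicate 1 was the highest for 8 of the 9, where 30.5% of symbols were highest in it, and Pfkm was the exception. The members' median in replicate 4 was −0.60 on the log2(FPKM + 1) scale relative to the mean of the other libraries, against −0.02 for all symbols and −0.06 for those of at least 50 FPKM. At least 1.5-fold below the others, a bound chosen after the values were seen, were Hk1, Gpi, Aldoa, Eno2 and Ldhb, 5 of 9 members, where 7.6% of all symbols and 8.26% of those of at least 50 FPKM were. Eno2 is counted here by its locus beside Cd2ap. Its other hippocampal locus read 3.19, 3.16, 2.95 and 1.91 FPKM in replicates 1 to 4, a drop short of this bound, and both loci are low. The listed Aldoc value with status FAIL was also the lowest of its 4.

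Leaving out Aldoc, the members held 0.934%, 0.876%, 0.899% and 0.644% of the summed FPKM of hippocampus replicates 1 to 4. The corresponding shares in hypothalamus were 0.781%, 0.719% and 0.857%. Among the other 9 glycolytic genes compared, 4 were lowest in hippocampus replicate 4, with a median of −0.13. Pfkl was among these, with 35.7 FPKM there and 58.1 to 66.3 FPKM in the other libraries. Pgam1, which moves the phosphate of phosphoglycerate, varied little, from 284 to 299 FPKM. The list headed regulators had 0 of 5 genes lowest in replicate 4 and a median of 0.34.

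Some marker lists also shifted in replicate 4. Of 9 microglia markers 7 were lowest there (median −0.53), of 12 neuron markers 8 (−0.29), of 9 astrocyte markers 5 (−0.05) and of 10 oligodendrocyte markers 2 (0.38). Of 6 endothelial markers 1 was lowest there (0.02), and of 6 choroid plexus markers 0 were (1.02). In hippocampus replicate 1 the members' median was 0.40. There the median was 0.25 for neuron, 0.25 for microglia and 0.07 for astrocyte markers. It was −0.28 for oligodendrocyte, −0.29 for endothelial and 0.91 for choroid plexus markers. The part of these shifts in the member values was not tested.

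The median SD of log2(FPKM + 1) among hippocampus libraries was 0.358 over the 10 members and 0.227 over 10371 symbols. Without replicate 4 it was 0.159 over the members and 0.176 over 10377 symbols. In hypothalamus it was 0.208 over the members and 0.246 over 10772 symbols, with Gapdh the most variable member (0.456). Hypothalamus replicate 2 was lowest for 7 of 10 members, where 32.4% of symbols and 42.7% of those of at least 50 FPKM were, with a member median of −0.23 against −0.06 for all symbols and −0.12 for those of at least 50 FPKM. In the same library 8 of 12 neuron markers were lowest (median −0.34), and 0 of 9 astrocyte markers (0.23). The part of these shifts in the member values was not tested either.

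**Figure D4:**
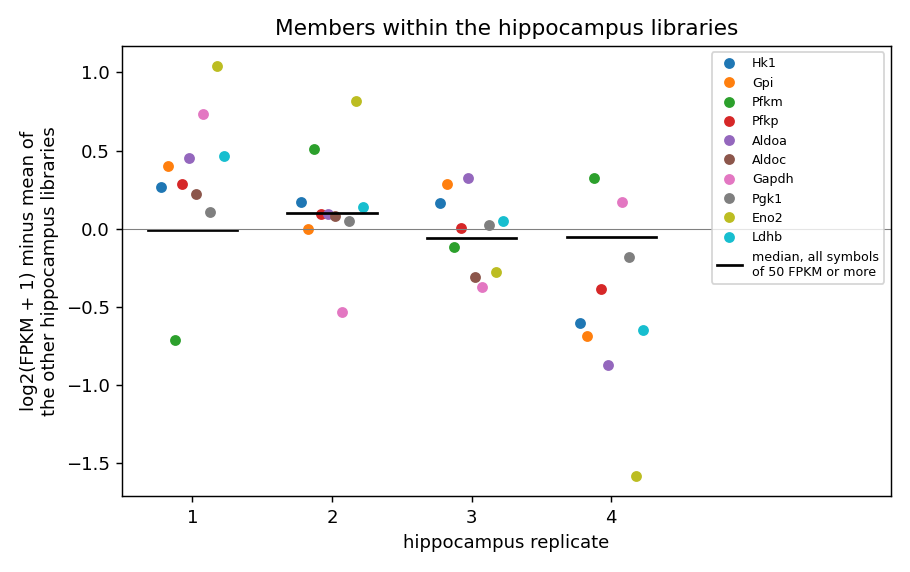
For each hippocampus library, log2(FPKM + 1) of each member minus its mean over the other hippocampus libraries, with 1 coloured point per gene and a black bar at the median of all symbols of at least 50 FPKM (Aldoc has 3 points). In replicate 4 the members other than Pfkm and Gapdh lay below 0, while the black bar was at −0.06. The lowest was −1.58, for Eno2 at its locus beside Cd2ap.

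The other genes of glycolysis were compared from a list of 18, of which 15 had symbols in both tables and 9 also reached a tissue mean of 1 FPKM. Of these, 2 were higher in every hippocampus library and 4 in every hypothalamus library. For this list and those below, the shares of all symbols compared were 28.4% towards hippocampus and 24.3% towards hypothalamus. Here and in the lists below, unless stated, a fold is of rescaled values on the log2(value + 1) scale, while FPKM are as deposited. Eno1 was 2.91-fold higher in hypothalamus, at 244 against 68.1 ± 8.95 FPKM (SD, n = 4) in hippocampus, each library of which lay lower. Its ratio of mean FPKM was 3.58. Tpi1, the triosephosphate isomerase gene next to the Eno2 block, read 1.36 to 1.45 FPKM in hippocampus and at most 0.0317 FPKM in hypothalamus, where 2 libraries were listed at 0. These are low values for an enzyme that every cell uses. RefSeq names 3 pseudogenes after Tpi1, and their part in these values was not tested. Pgam1 was the most abundant gene of this list that was compared, with 290.2 ± 7.57 FPKM in hippocampus (SD, n = 4) and a mean of 257 FPKM in hypothalamus. Pkm, the pyruvate kinase gene of brain and muscle, read 137 to 174 FPKM in hippocampus and was not compared here.

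Of 5 genes on a list headed regulators, 2 were higher in every hippocampus library and 1, Adpgk, in every hypothalamus library. Adpgk encodes an ADP-dependent enzyme that phosphorylates glucose, not a regulator. Pfkfb4, which sets the level of the phosphofructokinase activator fructose 2,6-bisphosphate, was higher in hippocampus, at 1.71 against 0.311 FPKM. Its fold was 3.42 on the log2(value + 1) scale and 5.50 as a ratio of mean FPKM. Hif1a was the highest of the list in hippocampus (20.9 FPKM) and Adpgk in hypothalamus (41.7 FPKM). Of 8 transporters of glucose and lactate, 2 were higher in hippocampus and 1 in hypothalamus. Slc16a7, the monocarboxylate transporter of neurons, was 2.31-fold higher in hippocampus (4.05 against 2.00 FPKM), and Bsg, the chaperone of the monocarboxylate transporters Slc16a1 and Slc16a3, was the highest of the list in both tissues (587 and 682 FPKM).

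For entry of pyruvate into mitochondria, 3 of 13 genes were higher in hippocampus and 1 in hypothalamus. Pdk3, a kinase that inhibits pyruvate dehydrogenase, was 2.91-fold higher in hippocampus (22.3 against 9.25 FPKM), and Mpc2, a subunit of the mitochondrial pyruvate carrier, 2.52-fold (162 against 78.5 FPKM). Mpc1, the other subunit, overlapped and had the highest mean of this list in hypothalamus, at 94.4 FPKM. Pdk2 had a mean of 93.5 FPKM there, and the ranges of these genes overlapped. Of 6 pentose phosphate genes, 2 were higher in hypothalamus and 0 in hippocampus. Tkt, the transketolase gene, was among these 2 and had the highest mean of the list, at 87.8 FPKM in hippocampus against 132 FPKM in hypothalamus. In hippocampus its range overlapped that of Taldo1, which had a mean of 83.4 FPKM. Of 8 genes of glycogen turnover, 1 was higher in hippocampus, the branching enzyme gene Gbe1 (2.75-fold), and 3 in hypothalamus, and the phosphorylase gene Pygb was the highest (76.5 FPKM in hippocampus, 106 FPKM in hypothalamus). Of 3 gluconeogenic genes compared, 1 was higher in hippocampus and 2 in hypothalamus. Among these, Fbp2 read 1.03 FPKM in hypothalamus against 0.106 FPKM in hippocampus. Its fold was 2.55 for rescaled values on the log2(value + 1) scale and 9.73 as a ratio of mean FPKM as deposited. It thus depended on the pseudocount and the scaling. G6pc3, the highest of them, read 74.5 FPKM in hypothalamus against 33.8 FPKM.

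The counts of these lists moved with the libraries and the scaling, and so did the shares of all symbols. Towards hippocampus the share was 32.2% without hippocampus replicate 1, 31.3% without hippocampus replicate 4 and 36.8% without hypothalamus replicate 1. Towards hypothalamus it was 27.9% without hippocampus replicate 1, 27.2% without hippocampus replicate 3 and 28.5% without hypothalamus replicate 3. With FPKM as deposited the shares were 19.2% and 35.1%. For pyruvate entry, the count towards hippocampus was 5 without hippocampus replicate 1 and 6 without hypothalamus replicate 1. Towards hypothalamus it was 3 with FPKM as deposited, 3 without hippocampus replicate 1 and 2 without hypothalamus replicate 3. Without hippocampus replicate 4, 4 transporters, 4 other glycolytic enzymes and 1 pentose phosphate gene were higher in hippocampus. Without hypothalamus replicate 1, 2 pentose phosphate genes and 2 glycogen genes were. Without hippocampus replicate 3, 2 transporters were higher in hypothalamus, and without hypothalamus replicate 3, 1 gluconeogenic gene was. With FPKM as deposited, 1 gene of the list headed regulators and 0 gluconeogenic genes were higher in hippocampus.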

How the data were processed

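Each tissue has 1 deposited table of FPKM from the authors, and per the file headers a status word follows every value. The submitters' processing notes name TopHat, TopHat2, Bowtie, Bowtie2, Cufflinks, Cuffdiff and the build rn5, without roles or versions. The annotation, strand setting and library scaling are not given in the sources used here. Libraries were made from poly-A selected RNA and read on an Illumina HiSeq instrument, per the labels' protocols. Values with a status other than OK (130 in hippocampus, 35 in hypothalamus) were not used. The locus with the highest mean stood for a symbol. Across tissues, libraries were rescaled to a sum of 1000000 over shared symbols, with a pseudocount of 1 and a minimum mean of 1 FPKM, in Python 3.11.15 with pandas 2.3.3. The comparison was tested on simulated data. Tables were treated as normalized separately, so no test was run across them.

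Members, gene lists and isozyme pairs were chosen with earlier results of these data known. Named genes were the members, their isozyme partners, up to 4 genes per metabolic list that did not overlap and differed at least 2-fold, and the highest gene of each list; some genes that this rule names are not reported here. Alternatives were other pseudocounts (0.1 and 5), scalings, filters and status rules, summed loci and left-out libraries.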

Additional observations from a re-analysis of the deposited data

Results flagged for a closer look

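In hippocampus, Hk1 had 1 library far from the rest: replicate 4, at 112.5 FPKM, against 178, 169 and 168 FPKM in replicates 1 to 3. The gap to the nearest library was 0.856 of the whole range, past the bound of Dixon's ratio used to pick out such values. It was 1 of 13 members and isozyme ratios with 4 hippocampus values, where chance gives 0.65, so it is about what chance gives and is listed as a description. Without replicate 4, Hk1 was higher in every hippocampus library than in any hypothalamus library, with a log2 difference of 0.73 in place of 0.58.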

How the results depend on the processing

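The members higher in every library of a tissue (Pfkm, Pgk1, Gpi and Gapdh) kept their direction under the alternatives run, while the overlapping Pfkp, at −0.04, ran from −0.13 to 0.13 with single libraries left out. With single libraries left out, the members higher in every hippocampus library numbered 2 to 6 and the median SD of the members in hippocampus ran from 0.159 to 0.420, with 6 members and 0.159 reached without hippocampus replicate 4. With both libraries labelled replicate 1 left out, 4 members were higher in every hippocampus library, Eno2 among them by its other hippocampal locus. With FPKM as deposited, 1 member in place of 2 was at least 2-fold higher in hippocampus, since the difference of Pgk1 was 0.89. With Gapdh and Eno2 left out of the members, 1 member was higher in every hypothalamus library and 1 was at least 2-fold higher there, an alternative chosen after seeing the data, as were those on status words. Of the 154 values of main results under an alternative, 148 stayed close to the reported value and 6 moved. Among single genes, other lists and background shares, 35 of 447 moved. No paired analysis was possible because the labels do not say what a replicate number shared by the tissues marks, and the results come from no test. Replicate 1 stood apart in both tissues. Sequencing depth is unknown, so low values such as those of Eno2 and Tpi1 have no counting error attached.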
